A study of Mus musculus with 2 samples.

Results

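Autophagy and lysosome genes were compared between livers of PPARα-null and wild-type mice that were both fed the PPARα agonist fenofibrate. The list holds 36 genes chosen by name, and every probe set whose platform annotation gives a member as its only symbol was used. Of the 36 genes, 35 had such a probe set, 84 probe sets in all, out of 18193 named genes on the array. The remaining member, the mitophagy receptor gene Bnip3l, is covered by 3 probe sets that the annotation also assigns to a second gene, and it was given no value. Of the 35, 24 belong to the autophagy machinery, 9 encode lysosomal enzymes or membrane proteins, and 2 encode the transcription factors Tfeb and Tfe3.

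The 2 groups were pparalpha -/- mice and wild-type mice. All were males of the 129SvEJ strain, 8 weeks old, on chow with 0.2% fenofibrate for 7 days. For each genotype, liver RNA of 3 mice was pooled and hybridised to 1 array, so there is 1 sample per group. Each value below is therefore a single measurement without a replicate check, and no difference could be tested. The controls received fenofibrate too, and no liver without the drug was analysed here. The site of the Ppara disruption, and the cells that carry it, are not described in the labels.

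Autophagy delivers cytoplasm, proteins and organelles to lysosomes. The Ulk kinase complex starts the process, the class III PI3-kinase complex marks the growing membrane with PI3P, and 2 linked conjugation systems attach proteins of the Atg8 family to it. Cargo receptors tether their load to Atg8 proteins, and lysosomal hydrolases such as the cathepsins degrade it after fusion. In mouse liver, PPARα is known as a fasting-activated receptor that can raise transcription of autophagy genes, and TFEB and TFE3 drive lysosomal genes through E-boxes with the core CACGTG in their promoters.

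The promoter sequences show where that core lies in the members. RefSeq windows of GRCm38.p6, from 250 bases before to 50 after each annotated start, were matched by symbol for 29 of the 36 members. The palindrome CACGTG, which reads alike on both strands, was in a window of 6 of 8 lysosomal members (75%) and of 4 of 19 members of the autophagy machinery (21.1%). It was in 0 of 2 transcription factor genes, and in 8.09% of all 27025 genes with a window. Lysosomal genes outside the list held it less widely, with 11 of 47 further enzyme and membrane protein genes (23.4%). Of further machinery and cargo receptor genes, 4 of 34 held it (11.8%). The longer palindrome TCACGTGA, which contains the first, was present for 4 of 8 lysosomal members and 1 of 19 autophagy members, against 3 of 47 further lysosomal genes (6.38%) and 1.12% of all genes. The PPAR-type direct repeat AGGTCANAGGTCA, searched on both strands, was in 0 of the 29 members and in 0.0481% of all genes. The single unit of that repeat, AGGTCA, was in 3 of 19 autophagy members and 2 of 8 lysosomal members, against 18.1% of all genes. A match is only a match of letters, and its absence speaks only of this window.

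The stretches that carry the core before the start of the 6 lysosomal members and of Atg3 are shown here, with CACGTG in capitals. They are printed 5′ to 3′ on the strand of the gene, from at most 20 bases before the first core to at most 20 after the last.
Lamp1, chr8:13159080-13159160, plus strand: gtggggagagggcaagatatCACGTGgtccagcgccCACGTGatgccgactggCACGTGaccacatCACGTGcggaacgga
Mcoln1, chr8:3500428-3500499, plus strand: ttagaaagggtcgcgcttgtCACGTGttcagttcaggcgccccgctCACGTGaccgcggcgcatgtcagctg
Gla, chrX:134601174-134601252, minus strand: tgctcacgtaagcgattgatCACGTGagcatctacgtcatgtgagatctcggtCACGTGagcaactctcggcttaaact
Ctsd, chr7:142387900-142388077, minus strand: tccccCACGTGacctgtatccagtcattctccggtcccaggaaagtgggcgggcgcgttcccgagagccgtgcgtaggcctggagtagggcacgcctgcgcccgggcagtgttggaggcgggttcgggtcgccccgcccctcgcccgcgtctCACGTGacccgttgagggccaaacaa
Ctsa, chr2:164833741-164833772, plus strand: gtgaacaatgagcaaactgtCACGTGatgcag
Ctsl, chr13:64370731-64370770, minus strand: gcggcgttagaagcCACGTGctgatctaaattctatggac
Atg3, chr16:45158715-45158783, plus strand: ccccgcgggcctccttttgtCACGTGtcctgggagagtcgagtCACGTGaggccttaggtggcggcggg
Lamp1 held 4 cores, the first starting 61 and the last 15 bases before the annotated start. In Ctsl the single core lay 236 bases before the start. Ctsa has 2 annotated starts, and the core was in the window of only 1 of them.

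Signals were used as the authors deposited them, on a linear scale set so that the trimmed mean of each array is 1000. A floor was placed at the median signal of all probe sets other than controls and stood at 269.4 for null and 287.8 for wild type. Each gene was read at its brightest probe set, and a gene counted as measured when that probe set reached the floor on at least 1 array. Ratios are given as log2 of null over wild type, and a gene was called when it was at least 2-fold apart. The only available measure of scatter is the disagreement between probe sets that read the same gene. Its pooled SD was 0.42 on the log2 scale (3917 genes, 10117 probe sets), and it leaves out the spread between mice. Ppara itself was lower in null at each of 3 probe sets (3414 in null and 7957 in wild type at the brightest). Of its classical targets, Cyp4a14, Ehhadh, Acadl and Pex11a were all over 2-fold lower in null.

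None of the measured autophagy and lysosome genes was 2-fold apart between the genotypes. Of 34 measured members, all of them above the floor on both arrays, 0 were at least 2-fold higher in null and 0 at least 2-fold lower. Among all 13041 measured genes, 2.80% were called higher and 4.99% lower, or 7.79% in either direction, and among the 10060 genes above the floor on both arrays 2.24% were higher and 3.61% lower (5.84% in all). The members' log2 ratios ran from -0.77 for Map1lc3a to 0.72 for Ctsl, with a median of 0.08, against -0.0046 for all measured genes. Within 1.5-fold lay 32 of 34 members (94.1%) and 78.3% of all genes above the floor on both arrays. Among genes with a mean signal of 1000 or more, the shares were 29 of 31 members (93.5%) and 83.9% of all genes. At 2-fold, 0 of these 31 members were apart, against 4.13% of the 6029 genes of that brightness, a lower share than among all measured genes.

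**Figure D1:**
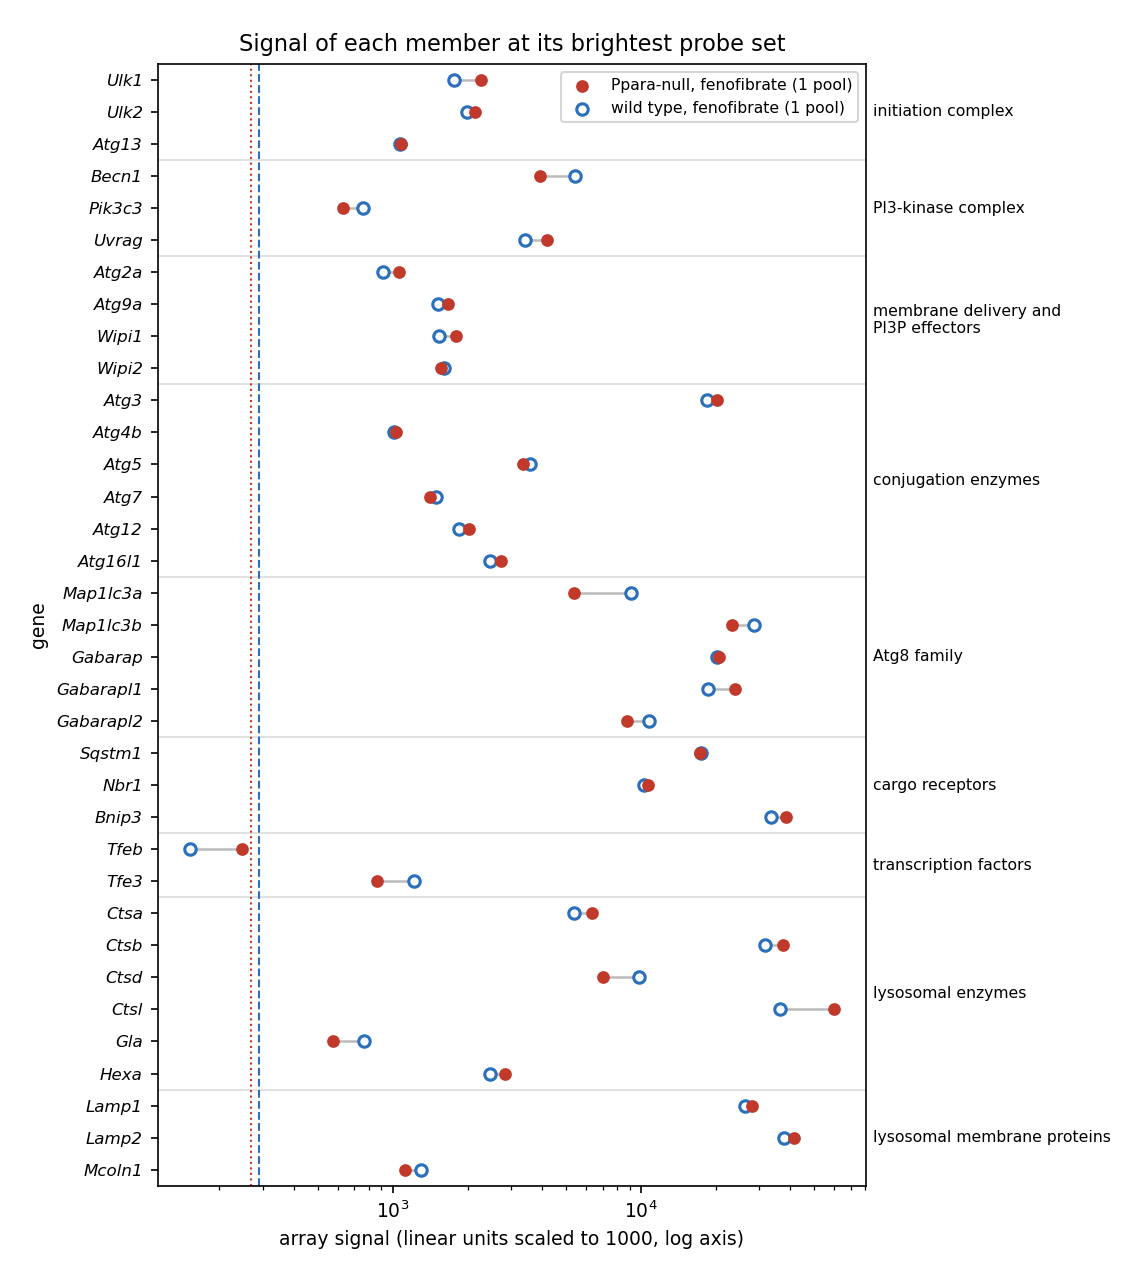
Signal of each of the 35 members at its brightest probe set (horizontal log axis, linear array units scaled to 1000), by role from top to bottom. Filled red points are the PPARα-null pool, open blue points the wild-type pool, and the vertical lines the floors at 269.4 (null, dotted) and 287.8 (wild type, dashed). The widest gaps are those of Map1lc3a and Ctsl, and Tfeb is the 1 member below both floors.

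The sign of small ratios depended on the scaling and on the probe set read. All 18 bacterial and phage hybridization control probe sets were brighter on the null array, with a median log2 ratio of 0.38. Scaling to them lowers every log2 ratio by that amount by construction, so that the median of all measured genes became -0.38 and 1 of 34 members stayed positive, against 21 of 34 as deposited. Under median centring 3 members took the opposite sign, and under quantile normalization and under loess 2 members each did. The share of 2-fold calls that were higher in null was 35.9% with the deposited scaling, 50% with median centring and 5.84% with these controls. The members' median stood 0.08 above that of all genes as deposited, 0.05 above it with loess and 0.02 above it with floors at the brightest Bacillus controls. It stood 0.12 above it with no floor and 0.15 above it with the median over probe sets. Over 10 other settings of scaling, floor and probe set choice, 6 of 34 members kept their sign in each, of which Ctsl was positive and Map1lc3a, Map1lc3b, Gabarapl2, Ctsd and Tfe3 were negative. Another 2, Pik3c3 and Gla, were negative in the 9 settings that gave them a value. These counts were partly fixed by construction. The other floors left the ratio of each of the 34 members unchanged wherever it had a value. The control scaling can turn only positive ratios, and it turns every one below 0.38. Ctsl, Gabarapl2, Ctsd, Tfe3 and Pik3c3 have 1 measured probe set each, so a choice of probe sets could not turn them. The control scaling alone turned 15 members, all positive as deposited. Only a choice of probe sets turned the sign of 3, Becn1, Atg5 and Mcoln1. Wipi1, Atg4b and Ctsb turned under both of these, and the 5 members Atg13, Wipi2, Atg7, Gabarap and Sqstm1 under at least 1 of median centring, quantile normalization and loess. For members with no stable sign, a direction below holds for the deposited scaling and the probe set named.

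In the Ulk initiation complex, Ulk2 and Atg13 were close to equal in both pools at their brightest probe sets. Ulk1 was higher in null at each of its probe sets as deposited. Ulk1, the kinase that starts autophagosome formation, gave 2258 in null and 1770 in wild type, a log2 ratio of 0.35, and its dimmer probe set gave 0.69. Its relative Ulk2 gave 2148 in null and 1995 in wild type (0.11 on the log2 scale), with its 3 probe sets above the floor between -0.03 and 0.44. The adaptor gene Atg13 gave 1078 in null and 1070.0 in wild type (log2 ratio 0.01). Apart from 1 probe set each of Ulk1 and Ulk2, their ratios were closer to 0 than the probe set SD of 0.42.

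In the class III PI3-kinase complex, which makes PI3P, the 3 members did not move together. Pik3c3, the lipid kinase itself, gave 629.6 in null and 755.4 in wild type (log2 ratio -0.26). Uvrag, which joins the complex at later stages, gave 4165 in null and 3407 in wild type (0.29). Becn1 encodes the scaffold Beclin 1, and its brightest probe set gave 3933 in null and 5401 in wild type, 1.37-fold lower in null. Its other 4 probe sets that reached the floor on both arrays disagreed in sign, so the 5 ran from -0.46 to 0.47, and the median over them was 0.07. No direction for Becn1 can be read from these arrays.

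Genes that supply membrane or read PI3P differed little at their brightest probe sets. Atg9a, the scramblase on vesicles that seed the membrane, gave 1664 in null and 1520 in wild type (log2 ratio 0.13). Atg2a, a lipid transfer protein, gave 1062 in null and 910.3 in wild type (0.22). The PI3P-binding proteins Wipi1 and Wipi2 had log2 ratios of 0.23 and -0.03. Both had probe sets of either sign, from -0.16 to 0.23 for the 3 of Wipi1 above the floor on both arrays and from -0.03 to 0.11 for the 2 of Wipi2. These ratios are all within the scatter between probe sets of 1 gene. A further probe set of Wipi2 was under the floor in null (168.3 in null and 439.0 in wild type), at least 1.63-fold lower there.

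The 6 conjugation enzymes had log2 ratios between -0.10 and 0.15 at their brightest probe sets. Atg3, the E2-like enzyme that attaches lipid to Atg8 proteins, gave 20322 in null and 18443 in wild type (0.14). Atg7, the E1-like enzyme of both conjugation systems, gave 1411 in null and 1491 in wild type (-0.08). Atg5 and Atg12, which are joined to each other, had log2 ratios of -0.10 and 0.14, and Atg16l1, which recruits that pair to the membrane, 0.15. The other probe sets of Atg5 had the opposite sign (0.15 and 0.28). A second probe set of Atg12 gave 884.5 in null and 1261 in wild type (-0.51).

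Atg4b was the enzyme whose probe sets were furthest apart. It encodes the protease that trims Atg8 proteins. One probe set gave 1031 in null and 1010 in wild type, a log2 ratio of 0.03. Another gave 199.4 in null and 987.6 in wild type, which is under the floor in null and amounts to at least 3.67-fold lower there. The gene value therefore depended on the probe set, and was -0.92 as a median over both. The files do not give the position of either probe set in the transcript.

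Atg8 family genes held both the lowest and the highest ratio of the machinery. These small ubiquitin-like proteins are coupled to the autophagosome membrane, with an LC3 and a GABARAP branch. Map1lc3a gave 5365 in null and 9135 in wild type, 1.70-fold lower in null (log2 ratio -0.77), and its second probe set gave 1957 in null and 3274 in wild type (-0.74). The 2 probe sets thus gave almost the same ratio. Map1lc3b, the LC3 form most used as an autophagosome marker, gave 23214 in null and 28505 in wild type (-0.30), and its 3 probe sets above the floor were all negative, up to -0.04. Neither gene was past 2-fold, but Map1lc3a was the lowest of all members.

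In the GABARAP branch, Gabarapl1 gave 24029 in null and 18624 in wild type, 1.29-fold higher in null (log2 ratio 0.37), with 0.28 at its second probe set. Gabarap gave 20711 in null and 20336 in wild type (0.03). Gabarapl2 gave 8770 in null and 10726 in wild type (-0.29), the same side as the LC3 genes. The branch therefore held 1 higher, 1 equal and 1 lower gene, all within the probe set SD of 0.42 over all genes. Gabarapl1 and Gabarapl2 lay beyond the smaller SD of 0.24 between probe sets of the members. Across the 5 family members the log2 ratios had an SD of 0.42, against 0.11 across the 6 conjugation enzymes. That contrast rests on the bright probe set of Atg4b, since with the median over probe sets the SDs were 0.40 and 0.43.

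Cargo receptor genes were nearly equal in both pools at their brightest probe sets. Sqstm1, which encodes p62, the receptor for ubiquitinated cargo and itself a target of stress pathways, gave 17239 in null and 17478 in wild type (log2 ratio -0.02). Its dimmer probe set gave 492.9 in null and 281.9 in wild type, which is under the floor and amounts to at least 1.71-fold higher in null, and the median over both was 0.38. Nbr1, a related receptor that also serves peroxisomes, gave 10699 in null and 10253 in wild type (0.06). Its second probe set gave 3114 in null and 2356 in wild type (0.40). Bnip3, a mitophagy receptor on the outer mitochondrial membrane, gave 38513 in null and 33329 in wild type (0.21). Of the transcription factor genes, Tfeb was under the floor on both arrays (246.7 in null and 151.9 in wild type) and has no ratio. Tfe3 gave 866.7 in null and 1219 in wild type, 1.41-fold lower in null (-0.49).

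**Figure D2:**
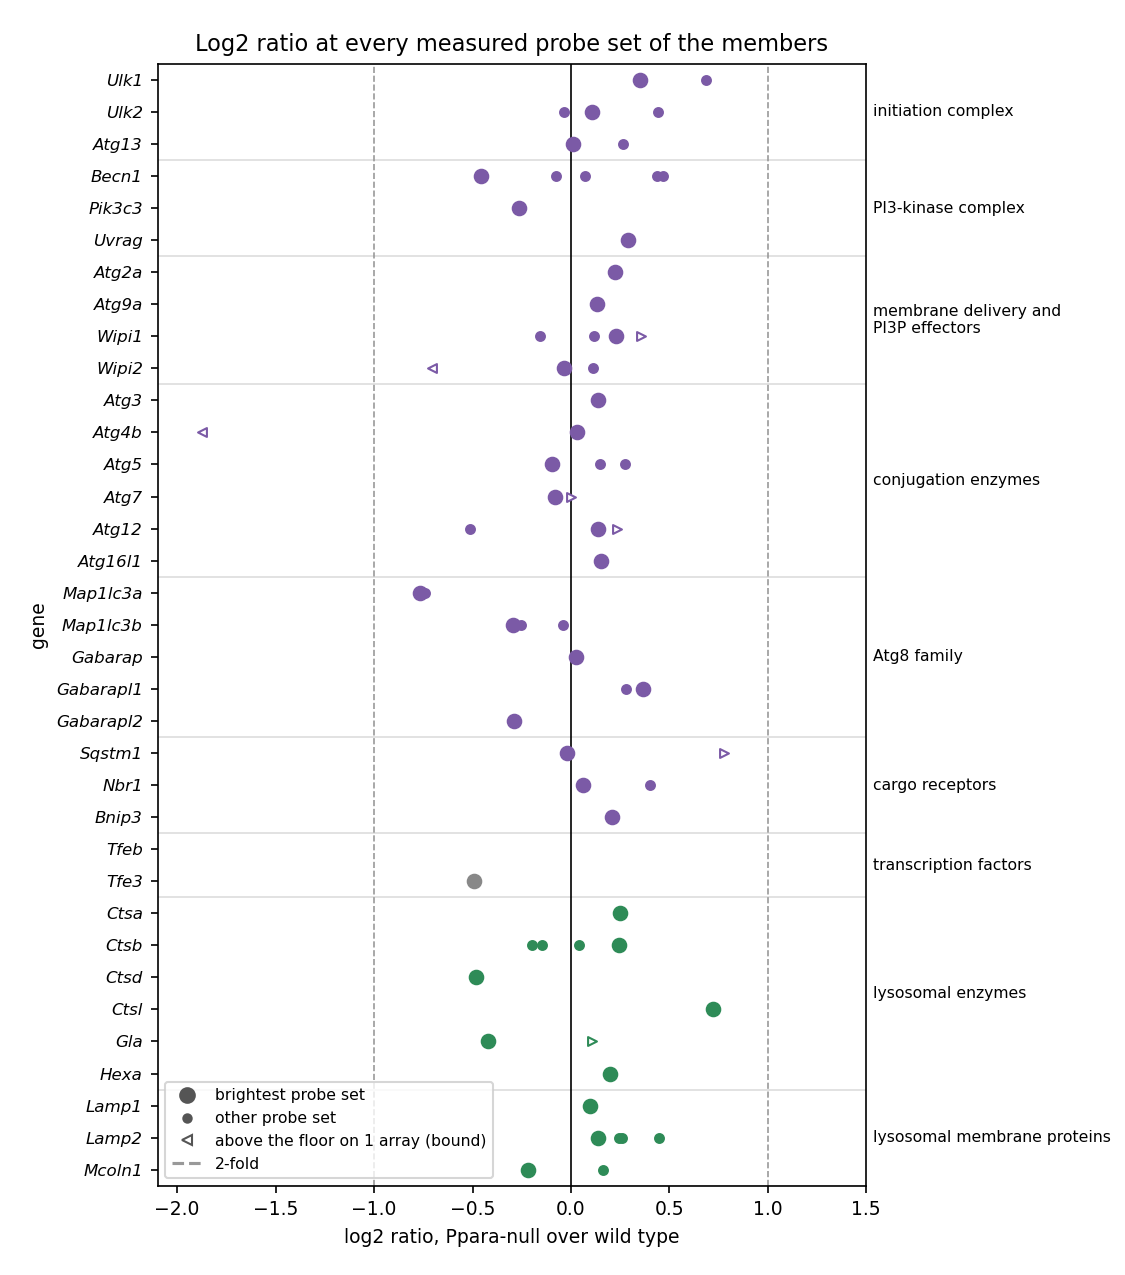
Log2 ratio of null over wild type (horizontal axis) at every measured probe set of the members, by role. Large points are the brightest probe set of a gene, small points the others, open triangles bounds from probe sets above the floor on 1 array, and dashed lines mark 2-fold. All 60 probe sets that reached the floor on both arrays lie inside the dashed lines, and the 1 bound outside them belongs to Atg4b.

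Probe sets were also read one by one. Of the 84 member probe sets, 60 were above the floor on both arrays, 7 on 1 array and 17 on neither. At 2-fold, 0 of the 60 were apart, where 5.77% of all 16279 such probe sets were. Of the 7 on 1 array, 1 had a bound past 2-fold, the dimmer probe set of Atg4b, followed by those of Sqstm1 and Wipi2. That makes 1 of 67 (1.49%), against 7.81% of all 22323 named probe sets above the floor on either array. With 2 or more probe sets that reached the floor on both arrays, 15 members could be checked against themselves. Signs agreed for 7 of them, positive for Ulk1, Atg13, Gabarapl1, Nbr1 and Lamp2 and negative for Map1lc3a and Map1lc3b. The pooled SD between probe sets of 1 gene was 0.24 in these 15 members, over 41 probe sets.

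Among the lysosomal enzymes, Ctsl and Ctsd stood at opposite ends. Ctsl encodes cathepsin L, a cysteine protease, and gave 59973 in null and 36338.5 in wild type, 1.65-fold higher in null (log2 ratio 0.72), the highest ratio of all members. It rests on 1 probe set, since the second was under the floor on both arrays. Ctsd encodes cathepsin D, the main aspartic protease of lysosomes, and gave 7039 in null and 9849 in wild type, 1.40-fold lower in null (-0.48). Both genes carry the core CACGTG in the windows printed above, 2 copies in Ctsd and 1 in Ctsl.

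The other enzymes lay between these. Ctsb, which encodes the cysteine protease cathepsin B, gave 37258 in null and 31466.5 in wild type (0.24), while its 4 probe sets above the floor ran from -0.20 to 0.24. Ctsa, a carboxypeptidase that also protects neuraminidase, gave 6362 in null and 5354 in wild type (0.25). Hexa, the alpha chain of β-hexosaminidase, gave 2822 in null and 2457 in wild type (0.20). Gla, the α-galactosidase that is deficient in human Fabry disease, gave 573.8 in null and 767.3 in wild type (-0.42). Its dimmer probe set pointed the other way, with 310.3 in null and 265.6 in wild type. The latter is under the floor, so this amounts to at least 1.08-fold higher in null, and the median over both was -0.16. Of the 6 enzyme genes, 4 had a positive and 2 a negative ratio.

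Lysosomal membrane genes were nearly level. Lamp1 and Lamp2 encode the abundant glycoproteins that line the membrane. Lamp1 gave 28099 in null and 26267 in wild type (log2 ratio 0.10), with 4 CACGTG cores in its promoter stretch. Lamp2, which also serves chaperone-mediated autophagy, gave 41296 in null and 37584 in wild type (0.14), and its 4 probe sets were all positive, up to 0.45. Mcoln1, the calcium channel TRPML1 that signals to TFEB, gave 1122 in null and 1304 in wild type (-0.22), and its second probe set above the floor gave 0.16.

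Autophagy machinery and lysosomal genes were then set side by side. The 24 machinery members had a median log2 ratio of 0.05, with 15 positive, and the 9 lysosomal members a median of 0.14 with 6 positive, against -0.0046 for all measured genes. The machinery median was thus lower by 0.09 on the log2 scale, a difference of medians of -0.09, and no measure of its error is available. With the median over probe sets in place of the brightest one, the difference turned to 0.04. Members with CACGTG in their window had a median log2 ratio of 0.0090 (10 genes) and those without it 0.08 (18 measured genes). Their ranges, -0.48 to 0.72 with the core and -0.49 to 0.37 without it, overlapped. The 7 members without a window, Becn1, Pik3c3, Atg12, Atg16l1, Map1lc3a, Bnip3l and Ctsb, are in neither range. Among them is Map1lc3a, the lowest of all members (-0.77).

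**Figure D3:**
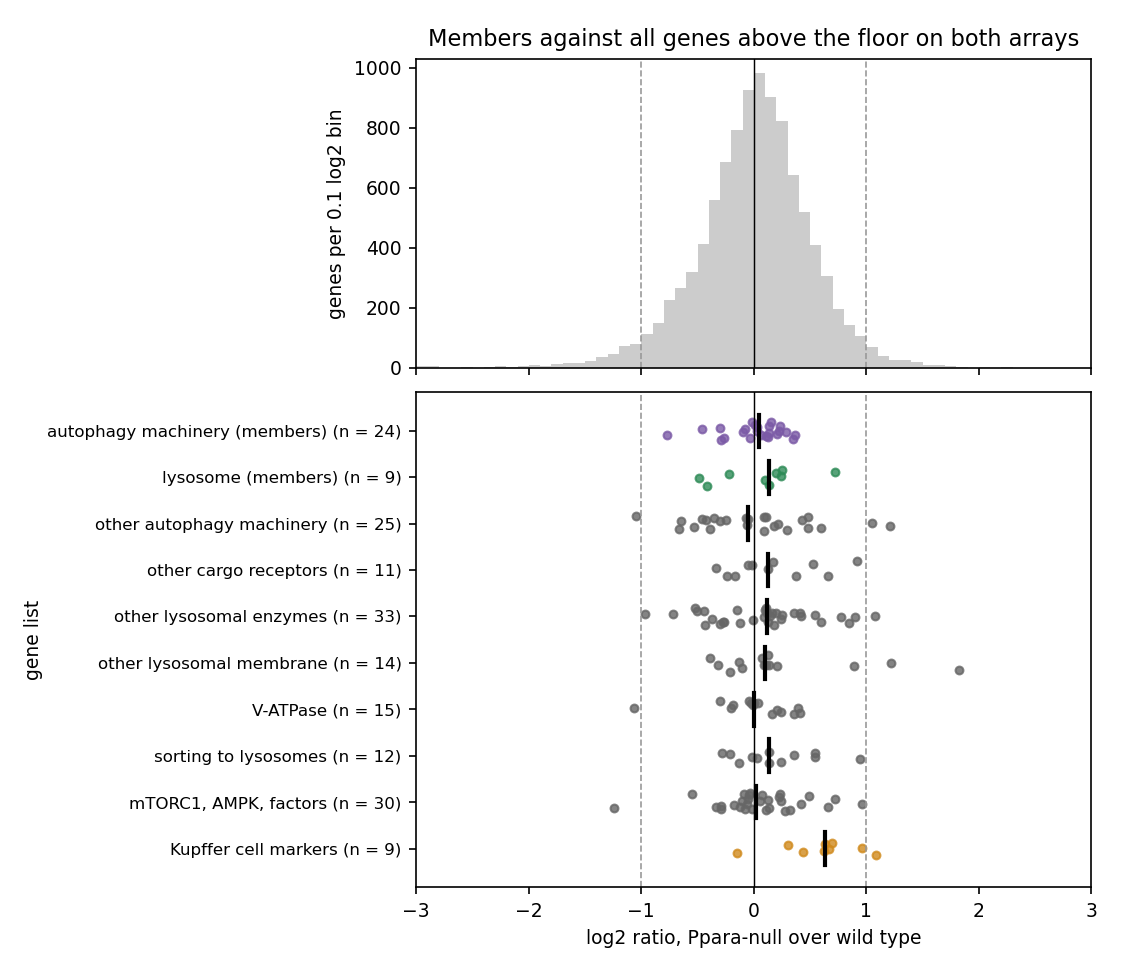
Upper panel, number of genes per bin of 0.1 in the log2 ratio of null over wild type, for 10060 genes above the floor on both arrays (11 lie outside the axis). Lower panel, the same ratio for each gene above the floor on both arrays in the member groups (coloured), further gene lists (grey) and Kupffer cell markers (orange), with bars at the medians and dashed lines at 2-fold. Member medians are 0.05 and 0.14, and the Kupffer cell markers lie further right, at 0.63.

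Genes of the same pathways outside the list were called about as often as genes at large. Over 7 further lists, 10 of 147 measured genes were 2-fold apart (6.80%), 6 higher in null and 4 lower, against 7.79% of all measured genes. Of these 10 calls, 0 stood under all 10 other settings. That count was partly fixed by construction, and no such share was taken for all genes. A gene without a value counted as lost, as for Atg10, Atg16l2, Galns and Ctns with floors at the 75th percentile. Those floors left 98 higher and 157 lower calls among all genes, from 365 and 651. The control scaling lowers every ratio, so it can take only higher calls. Scaling to the hybridization controls took the higher calls of Atg4c (1.78-fold), Atg10 (1.59-fold), Gm2a (1.62-fold) and Ctns (1.79-fold) under 2-fold. Those of Cln3 and Gga1 stayed past it. The call of Cln3 is lost with the median over probe sets (1.73-fold) and with floors at the 75th percentile. Of 26 further genes of the autophagy machinery, 2 were at least 2-fold higher in null and 1 lower, with a median log2 ratio of 0.02. Atg4c, a protease related to Atg4b, gave 979.2 in null and 424.0 in wild type (2.31-fold higher). Atg10, the E2-like enzyme for Atg12, gave 743.9 in null and 358.7 in wild type (2.07-fold higher). Atg16l2, a relative of Atg16l1, gave 373.3 in null and 773.5 in wild type (2.07-fold lower). The null signal of Atg16l2 lay under that of the brightest control probe set for Bacillus transcripts, which match no mouse gene, on the null array (422.4), and its call is lost with floors at those controls, with floors at the 75th percentile and with median centring.

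Of 11 further cargo receptor genes with a named probe set, 0 were 2-fold apart, against 7.79% of all measured genes. Retreg1, the receptor that delivers endoplasmic reticulum to lysosomes, was the highest (12980 in null and 6877 in wild type, log2 ratio 0.92), and Fkbp8, a mitophagy receptor, the lowest (4406 in null and 5555 in wild type, -0.33). Of 35 measured further lysosomal enzyme genes, 1 was called in each direction, and the median log2 ratio was 0.12. The shares of all measured genes were 2.80% higher and 4.99% lower. Gm2a, the activator protein that presents GM2 ganglioside to hexosaminidase, gave 8105 in null and 3837 in wild type (2.11-fold higher), and its second bright probe set gave 4036 in null and 1831 in wild type. Galns, a sulfatase, was at least 2.11-fold lower (195.6 in null and 569.2 in wild type). Its null signal was also under 422.4, against which the bound is 1.35-fold, and its call is lost in the same 3 settings as that of Atg16l2. Of Gm2a, another probe set pointed the other way (113.1 in null, under the floor, and 407.8 in wild type).

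Of 16 measured further lysosomal membrane genes, 2 were at least 2-fold higher in null and 0 lower, with a median log2 ratio of 0.10. Among all measured genes, 2.80% were higher and 4.99% lower. Cln3, whose human counterpart is mutated in juvenile Batten disease, gave 1087 in null and 306.0 in wild type (3.55-fold higher), while another probe set gave 162.8 in null, under the floor, and 318.6 in wild type, at least 1.18-fold lower in null. Ctns, the cystine exporter cystinosin, gave 704.9 in null and 303.0 in wild type (2.33-fold higher). At the brightest probe sets of both genes the wild-type signal lay under the brightest Bacillus control of that array, 316.5, and that of the other Cln3 probe set hardly above it. The dim side of both ratios therefore cannot be told from background.

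Markers of 6 liver cell types were read beside these groups. All 8 hepatocyte markers were above the floor on both arrays, with log2 ratios from 0.14 (Alb) to 0.45 (Tat) and a median of 0.28. Of 11 Kupffer cell and macrophage markers, 10 were measured, 8 with a positive ratio, and their summed signal was 28099 in null and 19749 in wild type (median log2 ratio 0.63). Clec4f, a lectin of Kupffer cells, gave 3003 in null and 1850 in wild type, and Cd5l, a secreted macrophage protein, gave 4052 in null and 1910 in wild type (2.12-fold higher). Cd68, a lysosomal membrane protein of macrophages, went the other way (204.3 in null and 373.5 in wild type, at least 1.39-fold lower), as did the lysozyme gene Lyz2 (-0.15). None was at 0, and Marco was under the floor on both arrays. Under the hybridization control scaling the medians became -0.10 for hepatocyte and 0.25 for Kupffer cell markers, and Cd5l fell to 1.63-fold higher. Under quantile normalization they were 0.09 for hepatocyte and 0.57 for Kupffer cell markers. Of 7 sinusoidal endothelial markers (median 0.09), Pecam1 was at least 2.36-fold lower (228.0 in null and 636.9 in wild type). Of 6 measured stellate cell markers (median 0.06), 0 were 2-fold apart, with Lrat the highest (0.64) and Col3a1 the lowest (-0.40). Of all measured genes, 7.79% were 2-fold apart. Of 4 cholangiocyte markers, 3 were above the floor, each on 1 array only. Of 6 lymphocyte and neutrophil markers, 2 were measured, and Ptprc was 2.26-fold lower (363.5 in null and 822.8 in wild type). The null signals of Pecam1 and Ptprc lay under 422.4. The part of these cell types in the lysosomal ratios was not tested. In pooled liver RNA, more cells of a type and more RNA per cell cannot be told apart.

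**Figure D4:**
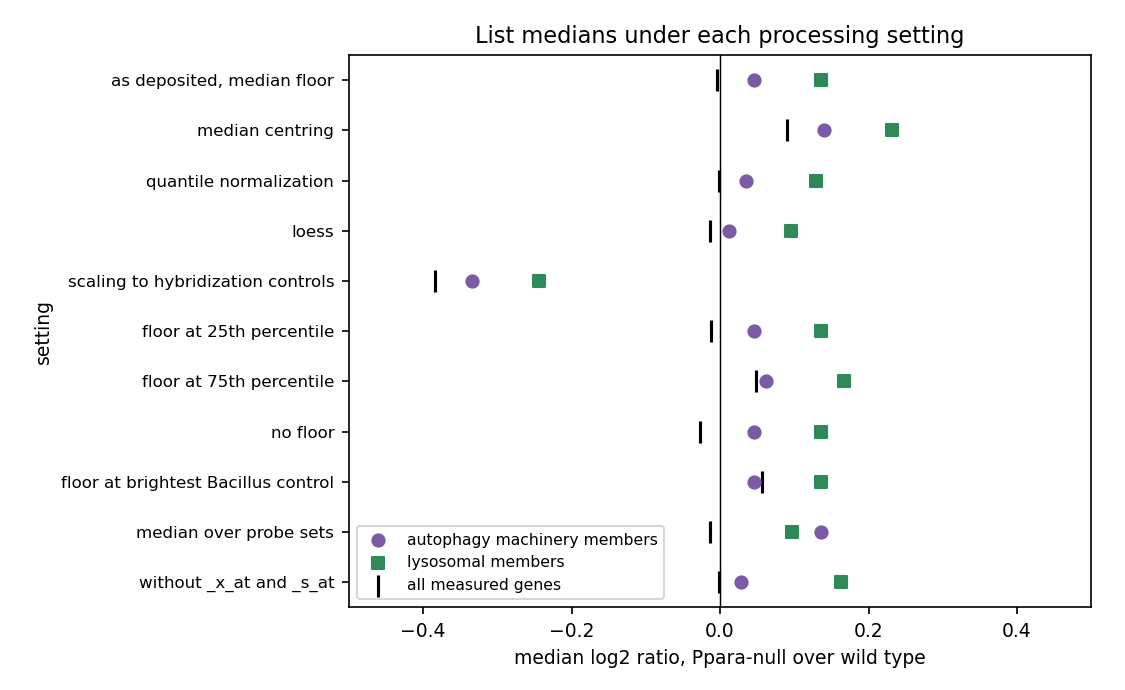
Median log2 ratio of null over wild type (horizontal axis) of the autophagy machinery members (circles), the lysosomal members (squares) and all measured genes (bars) under each processing setting (rows). The 3 medians move together to -0.33, -0.24 and -0.38 under scaling to the hybridization controls and lie between -0.03 and 0.23 in the other settings.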

How the data were processed

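Liver RNA pools of 3 mice per genotype were measured on 1 array each (45101 probe sets, 64 of them controls). The deposited values are signal intensity, not log-transformed. The authors used the Affymetrix statistical algorithm with scaling of each array to a target of 1000, per the labels, and both arrays had a 2% trimmed mean of 1000.01. Neither the software version nor detection calls are given in those sources. Scaling of this kind fixes the mean of each array, so a change shared by most genes cannot be seen.

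Symbols came from the platform annotation of 2016: 34945 probe sets had 1 symbol, 932 several and 9160 none. Gene identifiers of all 35 members with a probe set were in the RefSeq table of GRCm38.p6, which changed 0 symbols. No build is named for the array, so gene coordinates are given only for RefSeq promoter windows.

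From these values, signals under each array's median were raised to it, a gene was read at its probe set of highest mean log2 signal, and log2 of null over wild type was taken. Genes were called at 2-fold. With 1 array per genotype the number of arrays limits the precision, and medians and counts stand in for tests. Every member was named, and of the other lists the genes at least 2-fold apart or, where there were none, the extremes in each direction among genes above the floor on both arrays. The members, lists and alternatives were chosen with earlier results of these data known. Of 157 further pathway genes, 148 had a named probe set. The procedure was tested on simulated data. The planted differences were all larger than that of any member, so the test does not bear on differences of the size seen here. Alternatives were median centring, quantile normalization, loess, scaling to 18 hybridization controls, 4 other floors, the median over probe sets, exclusion of the _x_at and _s_at probe set classes, and calls at 1.5-fold and at 3-fold. Python 3.11.15 with numpy 2.4.6, pandas 2.3.3 and statsmodels 0.14.6 was used.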

Additional observations from a re-analysis of the deposited data

How the results depend on the processing

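Scaling to the hybridization controls moved all members alike. The choice of probe sets moved Atg4b and Becn1 furthest, and Sqstm1, Wipi1 and Mcoln1 by about as much as that scaling did. Under scaling to the hybridization controls the median log2 ratio was -0.33 for the autophagy machinery and -0.24 for lysosomal members, and 1 member, Map1lc3a, was at least 2-fold lower in null (log2 ratio -1.15). When each gene was the median of its measured probe sets, the machinery median minus the lysosomal median was 0.0395, and single values moved beyond the probe set SD for Becn1 (0.07) and Atg4b (-0.92), whose probe sets disagree. At a threshold of 1.5-fold, 1 member was higher (Ctsl) and 1 lower (Map1lc3a). In the other settings the counts of members 2-fold apart stayed at 0 and both medians moved by less than 0.1. Among all genes, 365 were at least 2-fold higher in null and 651 lower as deposited. These counts were 109 and 1759 under the control scaling, 1650 and 2336 with floors at the 25th percentile, 2177 and 3096 with no floor, 98 and 157 with floors at the 75th percentile, 303 and 297 with floors at the brightest Bacillus controls, and 507 and 507 after median centring. At 1.5-fold they were 1438 and 1925, and at 3-fold 58 and 132. No paired analysis was possible because each genotype has 1 array, and for the same reason no array could be left out. Signal over background limits Tfeb, which was under the floor on both arrays.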

Other observations

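Genes that acidify lysosomes, sort enzymes to them and control autophagy through nutrient sensing were also read. Of 15 measured subunits and accessory genes of the V-ATPase, the proton pump of the lysosomal membrane, 0 were at least 2-fold higher in null and 1 lower, with a median log2 ratio of 0.0015, where 7.79% of all measured genes were called in either direction. The one lower gene was Atp6v0a2 (728.6 in null and 1522 in wild type, 2.09-fold lower), whose other probe sets had log2 ratios of -0.73 and 0.34. The call is lost with the median over probe sets, with median centring and with floors at the 75th percentile. Of 13 genes of sorting to lysosomes, 1 was higher and 0 lower. That was Gga1, a clathrin adaptor for mannose 6-phosphate receptors, at least 4.61-fold higher in null (1327 in null and 267.9 in wild type), while its other probe set was under the floor on both arrays. Among those read on both arrays, its relative Gga2, named after its value was seen, gave 1683 in null and 876.4 in wild type (log2 ratio 0.94), and Gga3 had -0.13.

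Of 31 measured genes of mTORC1, AMPK and transcriptional control, 0 were higher and 1 lower, with a median log2 ratio of -0.01. Among all measured genes, 2.80% were higher and 4.99% lower. Sesn1, a leucine sensor that restrains mTORC1, gave 944.2 in null and 2231 in wild type (2.36-fold lower), with log2 ratios of -0.64 and 0.33 at its other probe sets above the floor. Ddit4, another inhibitor of mTORC1 and named after its value was seen, gave 3998 in null and 2056 in wild type (log2 ratio 0.96). Mtor itself, also named after its value was seen, gave 2277 in null and 3338 in wild type (-0.55). The call of Sesn1 is lost with the median over probe sets, and those of Sesn1 and Gga1 are lost without the _x_at and _s_at probe set classes. Without these classes Sesn1 took the opposite sign (log2 ratio 0.33) and Gga1 had no value. With floors at the 75th percentile the call of Gga1 is lost too (1.64-fold). All of these values are single measurements, and none was tested.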
